A study of Mus musculus with 6 samples.

Results

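Nucleoporins are the proteins that build the nuclear pore complex, and importins, transportins and exportins are the receptors that carry cargo through it. Members were all genes of the array whose symbol begins with Nup, Kpna, Kpnb, Ipo, Xpo or Tnpo followed by a number. This rule found 41 of the 18193 genes named on the array, 19 nucleoporins, 17 importins and transportins and 5 exportins. Each gene was read through its brightest probe set over the 6 arrays, and 39 of the 41 reached the level at which genes were tested, a mean log2(signal + 16) of 7.72. The other two, Nup210 and Nup210l, lay under it.

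RNA came from primary cultures of mouse aortic endothelial cells, 3 from non-transgenic controls and 3 from mice carrying a transgene for human PPAR gamma with the V290M change, a dominant negative form of this nuclear receptor, under the promoter of the endothelial cadherin gene CDH5. The strain label of all samples was C57, none was treated, and age and sex are not given in the sources used here. Every culture pooled cells of 2 mice, so n is 3 cultures per group, and each was hybridized to an Affymetrix mouse genome array. Expression of the transgene was not analysed here.

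Every array had the same mean signal, 1500.01, after 2% of values were trimmed at each end. The medians still differed between the groups. They were 219.9 to 222.9 signal units in the controls and 173 to 186.1 in the transgenic cultures, with no overlap. Transgenic culture 3 stood apart from the other transgenic cultures. Across genes its mean rank correlation was 0.972 with the controls and 0.907 with transgenic cultures 1 and 2, so results are given with and without it. It was singled out by these same expression values. Leaving out the transgenic culture most like the controls favours larger differences and smaller p-values. Calls and p-values without it are therefore descriptive only, throughout. Of 15 endothelial markers 6 lay above the level filter, and the defining genes Cdh5 and Pecam1 lay under it, whereas all 10 fibroblast markers lay above it by their mean. The log2 summed signal of the fibroblast markers was 17.05 to 17.20 in the controls and 16.80 to 17.04 in the transgenic cultures. The transgenic mean was lower for Dcn, Lum, Postn, Col1a2, Col3a1, Pdgfra and Pdgfrb, and higher for Thy1, Col1a1 and Fbln1. Dcn and Lum were lowest in transgenic cultures 1 and 2, whereas Thy1 was highest there. Of 7 adipocyte markers, 5 or 6 lay above the filter in each control, and 3, 2 and 6 did in transgenic cultures 1, 2 and 3, with a log2 summed signal of 15.27 to 16.16 against 14.35 to 15.18. Of 10 markers of leukocytes and macrophages, 7 lay above the filter in transgenic culture 2 and 3 or 4 in each other culture, and their log2 summed signal was 11.37 to 11.69 in the controls against 12.09 to 13.44. The summed signals of endothelial markers (13.33 to 13.71 against 13.64 to 13.94) and of smooth muscle markers (13.98 to 14.71 against 14.22 to 14.97) overlapped. The 3' to 5' ratio of the Gapdh control probe sets was 1.51 to 1.71 in the controls and 1.2 to 1.44 in the transgenic cultures, with no overlap. The part of these features in the results below was not tested.

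The pore is a ring-shaped channel in the nuclear envelope. Its scaffold consists of an inner ring and of the Y complex, which forms the outer rings, and proteins rich in phenylalanine-glycine repeats fill the centre. Importins bind nuclear localization signals in the cytoplasm and release their cargo in the nucleus when the GTPase Ran, loaded with GTP, binds them, while exportins take up cargo together with Ran-GTP and release it outside. In dividing cells the complex is taken apart at mitosis and rebuilt, and the Y complex also sits at kinetochores, where spindle fibres attach.

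With the deposited scaling most members lay slightly higher in the transgenic cultures, but none passed the test. Of the 39 tested, 29 had a higher and 10 a lower group mean, and the median difference was 0.11 on the log2(signal + 16) scale against -0.02 over all 11208 genes, of which 47.5% were higher. Differences are transgenic minus non-transgenic throughout. The direction depended on the setting: when the Gapdh 3' to 5' ratio entered the fit, 46.2% of members were higher, with a median of -0.0436 against 0.12 over all genes. With the arrays scaled to 1 median, 100% of members were higher, with a median of 0.37 against 0.25 over all genes. Under that scaling 17 members had an unadjusted p under 0.05, but the share of all genes at that p was not counted. With limma and Benjamini-Hochberg adjustment over all genes, 0 of 39 members were called at an adjusted p of 0.05, against 0% of all genes, and the smallest adjusted p of a member was 0.428. An unadjusted p under 0.05 was found for 2 members (5.13%), Nup85 and Kpna2, both higher, against 11.5% of all genes (6.47% higher and 5.02% lower). The groups did not overlap for 4 members (10.3%), all higher, namely Nup85, Nup93, Nup155 and Nup205, against 16.1% of all genes in either direction (9.39% higher and 6.72% lower). Nup93 is named here after its values were seen. Both shares were no larger than those of all genes in either direction. Counting higher genes only, 5.13% stood beside 6.47% for the unadjusted p and 10.3% beside 9.39% for no overlap. For 36 of the 39 the 95% interval of the difference lay within a 2-fold change either way, as it did for 63% of all genes. In bulk cultures like these, fewer cells of a type and less RNA per cell cannot be told apart.

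**Figure D1:**
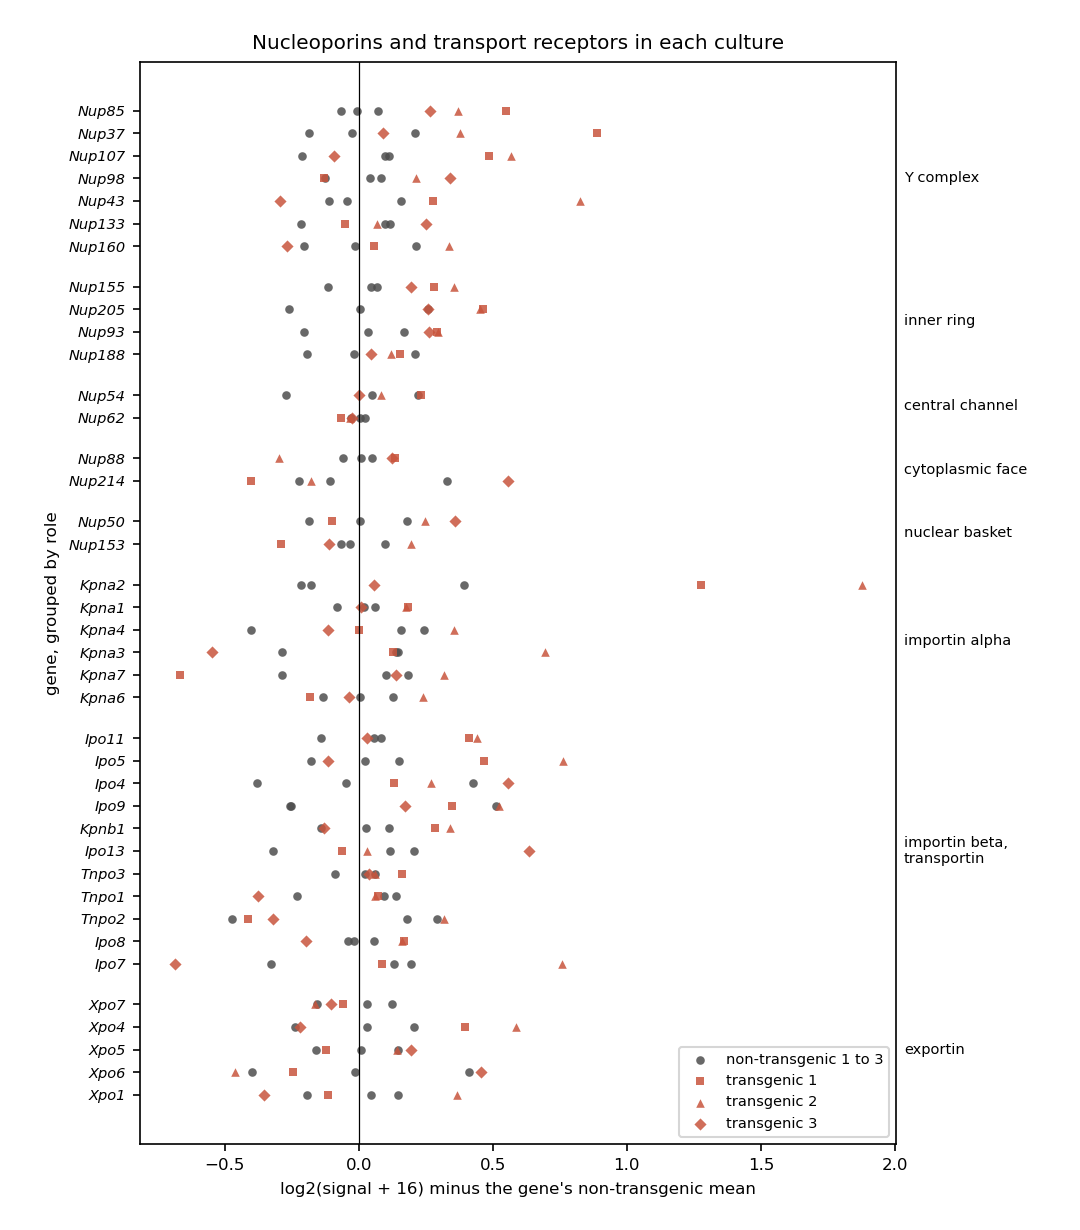
Level of each tested member in each culture, as log2(signal + 16) minus the mean of the 3 non-transgenic cultures, grouped by role; circles are non-transgenic cultures, and a square, a triangle and a diamond mark transgenic cultures 1, 2 and 3. Most points lie within 0.5 of the non-transgenic mean, and Kpna2 in transgenic cultures 1 and 2 lies farthest out.

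Without transgenic culture 3, limma called 2 of 39 members (5.13%), Kpna2 and Ipo5, both higher, against 14.7% of all genes (6.88% higher and 7.83% lower). This fit compares 2 cultures with 3. The omitted culture was chosen by its likeness to the controls, which favours calls. Over all genes the median absolute difference was 0.24 with it and 0.34 without it. These calls are therefore not read as evidence of a group difference. Of the members, 30 then had a higher mean, against 44.9% of all genes. A limma unadjusted p under 0.05 was found for 7 (17.9%), all of them higher, against 32.5% of all genes. At that p, 1591 of the 11208 genes were higher and 2052 lower. The groups did not overlap for 15 (38.5%), 14 of them higher, against 50.2% of all genes. With no overlap, 2558 of the 11208 genes were higher and 3066 lower. The median difference was 0.17, against -0.06 over all genes.

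The promoters of the 2 members called without transgenic culture 3, and of those nucleoporins with no overlap that have an entry in the table (Nup93, Nup155 and Nup205), are shown here so that their upstream elements can be read beside the values. Sequences are from RefSeq, build GRCm38.p6, and run 5′ to 3′ on the strand of the gene over the 250 bases before its most upstream start in the table. Capitals mark matches to the motifs searched on both strands, which were CCAAT (the element bound by NF-Y), TTTGAA (the cell cycle homology element of genes used at mitosis), TTCCCGC and TTGGCGC (core forms of the E2F site) and CTTCCGG (the core of the ETS site). A match on the opposite strand appears as its reverse complement, so that TTTGAA is then read as TTCAAA.

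Kpna2, chr11:106999526-106999775, minus strand: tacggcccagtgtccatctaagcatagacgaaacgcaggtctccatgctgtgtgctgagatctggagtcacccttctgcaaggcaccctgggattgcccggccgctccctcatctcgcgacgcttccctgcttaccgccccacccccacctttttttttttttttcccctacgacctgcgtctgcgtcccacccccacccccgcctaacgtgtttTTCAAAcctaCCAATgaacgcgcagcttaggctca
Ipo5, chr14:120910944-120911193, plus strand: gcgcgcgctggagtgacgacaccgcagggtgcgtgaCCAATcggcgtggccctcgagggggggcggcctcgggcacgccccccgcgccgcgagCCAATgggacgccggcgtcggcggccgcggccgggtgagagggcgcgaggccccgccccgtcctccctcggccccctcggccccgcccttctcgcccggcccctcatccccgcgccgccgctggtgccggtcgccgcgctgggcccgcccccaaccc
Nup93, chr8:94214314-94214563, plus strand: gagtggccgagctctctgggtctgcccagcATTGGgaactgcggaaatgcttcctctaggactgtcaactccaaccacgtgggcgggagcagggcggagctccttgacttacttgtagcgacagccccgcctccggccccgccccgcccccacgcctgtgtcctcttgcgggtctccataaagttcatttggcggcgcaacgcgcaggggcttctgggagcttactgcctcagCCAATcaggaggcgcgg
Nup155, chr15:8109063-8109312, plus strand: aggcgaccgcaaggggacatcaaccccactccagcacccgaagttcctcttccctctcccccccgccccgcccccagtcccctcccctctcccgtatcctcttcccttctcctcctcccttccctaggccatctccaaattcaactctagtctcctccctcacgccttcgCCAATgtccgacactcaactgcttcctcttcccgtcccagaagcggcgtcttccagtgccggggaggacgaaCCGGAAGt
Nup205, chr6:35177366-35177615, plus strand: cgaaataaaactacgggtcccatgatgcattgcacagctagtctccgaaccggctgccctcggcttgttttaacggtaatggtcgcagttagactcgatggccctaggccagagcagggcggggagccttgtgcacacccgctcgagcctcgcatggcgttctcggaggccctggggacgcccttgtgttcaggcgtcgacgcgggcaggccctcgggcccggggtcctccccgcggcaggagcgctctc

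Of these 5 windows, that of Kpna2 alone held both TTTGAA (bases -35 to -30 from the start) and CCAAT (-25 to -21). Ipo5, Nup93 and Nup155 held CCAAT without TTTGAA, and the window of Nup205 held none of the motifs. The table has 40 windows for 33 members. CCAAT was present in 20 of the 40 (50%), against 33.8% of the 32851 windows in the table, and TTTGAA in 8 of the 40 against 16%. Both together were present in 6 of the 40, those of Kpna2, Kpna7, Nup37, Nup98 and Tnpo2, Nup37 having 2 such windows, against 5.55% of all windows. The ETS core CTTCCGG was present in 7 of the 40 (17.5%) against 6.91%, TTCCCGC in 3 against 3.82% and TTGGCGC in 1 against 1.97%. No 2 of the motifs overlapped in these windows. Such matches describe the letters only.

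Kpna2 encodes importin alpha 1, the adaptor that binds classical nuclear localization signals and couples them to importin beta, and it is known as a gene of proliferating cells. Its controls read 11.87, 11.30 and 11.26, and its transgenic cultures read 12.76, 13.36 and 11.54. Transgenic cultures 1 and 2 lay above every control, and transgenic culture 3 lay within the control range, so the groups overlapped. The difference was 1.07 ± 0.43 (limma's standard error, n = 3 per group), a 2.1-fold higher signal, with a limma adjusted p of 0.428. Without transgenic culture 3 it was 1.58 ± 0.26, a 2.98-fold higher signal, with a limma adjusted p of 0.00965. That p is descriptive only, because the omitted culture was chosen by its likeness to the controls. Over the 18 alternative settings the adjusted p of Kpna2 ran from 0.000268 to 0.93. Of the 39 members it had the widest range over the 6 cultures, 2.09, and it was read by 1 probe set. Its difference was 0.67 without transgenic culture 2 and 0.25 when the Gapdh 3' to 5' ratio entered the fit.

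On their brightest probe sets the other importin alpha genes differed by less. Kpna1 (importin alpha 5) was at 11.66, 11.80 and 11.76 against 11.92, 11.91 and 11.75, a difference of 0.12 ± 0.16 (limma adjusted p = 0.761). Transgenic cultures 1 and 2 lay just above the controls and culture 3 among them. Kpna3 and Kpna4, which encode closely related adaptors, differed by 0.09 and 0.08, Kpna6 by 0.01 and Kpna7 by -0.07. Kpna7, known from oocytes and early embryos, had a mean just above the level filter, at 7.81 and 7.74. Dimmer probe sets above the filter gave other values. The 5 probe sets of Kpna1 ran from -0.01 to 0.66, the largest with no overlap. Second probe sets gave 0.004 for Kpna3, -0.43 for Kpna4 and 0.39 for Kpna6. Whether the difference of Kpna2 exceeds that of the other importin alpha genes was not tested.

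Kpnb1, importin beta 1, the receptor that carries importin alpha and its cargo, was at 14.15, 13.90 and 14.07 in the controls and at 14.32, 14.38 and 13.91 in the transgenic cultures. Transgenic cultures 1 and 2 were again the highest and culture 3 lay inside the control range. Its brightest probe set carries a suffix for probes that may bind other transcripts, and all 4 of its probe sets above the filter were higher, by 0.17 to 0.73.

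Ipo5, which imports ribosomal proteins and histones, was at 12.69, 12.89 and 13.02 against 13.33, 13.63 and 12.75. Cultures 1 and 2 lay above all controls and culture 3 within them. The difference was 0.37 ± 0.23 over 6 cultures (limma adjusted p = 0.52). Without transgenic culture 3 it was 0.62 ± 0.16 (limma adjusted p = 0.038), where Ipo5 was called, with the same limit as for Kpna2. Over the 18 alternatives the adjusted p of Ipo5 ran from 0.00503 to 0.906. Its second probe set above the filter, at 11.81, 12.00 and 11.94 against 12.65, 12.26 and 12.07, gave 0.41 with no overlap. When the Gapdh 3' to 5' ratio entered the fit, the sign of Ipo5 turned, to -0.32. Ipo11, an importin of ubiquitin-conjugating enzymes, had the smallest unadjusted p of the importin beta class. It was at 12.49, 12.68 and 12.71 against 13.04, 13.07 and 12.66, a difference of 0.30 ± 0.16 (limma adjusted p = 0.483). The same pair of cultures was high and culture 3 was inside the control range. The histone importin Ipo4 differed by 0.32 and Ipo9 by 0.35, each with overlapping groups.

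On their brightest probe sets the rest of the importin beta class differed by less. Ipo7, a carrier of ribosomal proteins, was at 11.94, 12.47 and 12.40 against 12.36, 13.03 and 11.59. Transgenic cultures 2 and 3 were the highest and the lowest of all 6, on either side of the controls, and the group difference was 0.05. Ipo13, which works in both directions, differed by 0.20, with culture 3 the highest at 11.08. Ipo8 differed by 0.05, Tnpo3, the carrier of splicing factors of the SR family, by 0.09, and Tnpo2 by -0.14. For Tnpo1, transportin 1, the carrier of hnRNP proteins, the result depended on the probe set, as described with the probe sets.

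Exportins, read on their brightest probe sets, showed no common direction, with 2 higher and 3 lower and a median difference of -0.03. Xpo1, the main exportin of proteins with leucine-rich signals, was at 12.03, 12.37 and 12.26 against 12.11, 12.59 and 11.87. The transgenic cultures lay on both sides of the controls, and the difference was -0.03, with a 95% interval from -0.54 to 0.47. Xpo7 was at 13.60, 13.79 and 13.88 against 13.69, 13.59 and 13.65, a difference of -0.11 ± 0.12 (limma adjusted p = 0.712). Xpo4, an exportin of the translation factor eIF5A, was at 8.39, 8.83 and 8.65 against 9.02, 9.21 and 8.40, a difference of 0.25 ± 0.31 (limma adjusted p = 0.75). Cultures 1 and 2 lay above the controls and culture 3 within them. Xpo5, which exports microRNA precursors, differed by 0.07, and Xpo6, the exportin of actin, by -0.08. The second Xpo5 probe set, at 10.18, 9.99 and 9.89 against 10.29, 10.52 and 10.22, gave 0.32 with no overlap. For Xpo1 the second probe set above the filter gave 0.17 with overlapping groups. Dimmer probe sets of Xpo4 and Xpo7 are given with the probe sets.

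**Figure D2:**
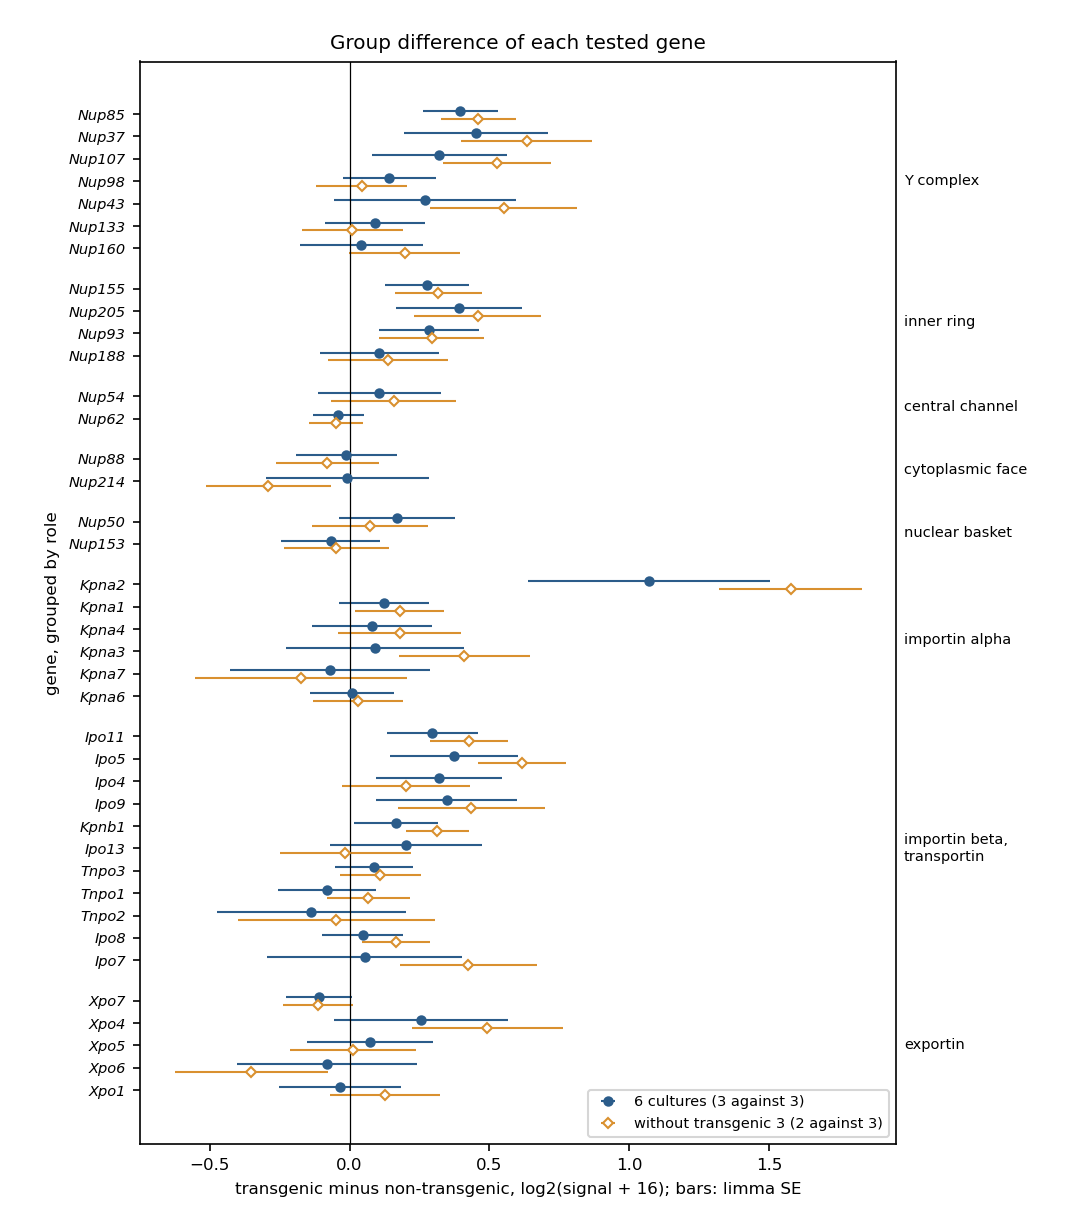
Group difference of each tested member with limma's standard error, over all 6 cultures (filled circles) and without transgenic culture 3 (open diamonds), in log2(signal + 16). Kpna2 is farthest from 0 at 1.07 and 1.58; the Y complex and inner ring genes lie above 0 in both fits and the exportins on both sides.

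All 7 genes of the Y complex had a higher mean, with a median difference of 0.27. None was called, and over all genes 47.5% were higher. Nup85, a scaffold subunit of the complex, was at 12.73, 12.86 and 12.79 in the controls and at 13.34, 13.16 and 13.06 in the transgenic cultures. Every transgenic culture, culture 3 included, lay above every control. The difference was 0.40 ± 0.13 (limma adjusted p = 0.428), a 1.32-fold higher signal, and its second probe set gave 0.26, again with no overlap. Over the 18 alternatives its difference lay between 0.31 and 0.66 and its limma adjusted p between 0.0011 and 0.906.

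Nup37, a small subunit of the complex, was at 10.54, 10.94 and 10.70 against 11.61, 11.11 and 10.82. Culture 3 lay inside the control range. The difference was 0.45 ± 0.26 (limma adjusted p = 0.499), and 0.63 without culture 3. Nup107, which with Nup133 forms its stem, was at 10.75, 11.07 and 11.06 against 11.45, 11.53 and 10.87, a difference of 0.32. Cultures 1 and 2 lay above the controls and culture 3 among them. Nup133 itself differed by 0.09, Nup43 by 0.27, Nup98 by 0.14 and Nup160 by 0.04, all with overlap. The transcript of Nup98 encodes both a repeat protein of the channel and the Y complex subunit Nup96, so that its value stands for both.

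All 4 genes of the inner ring had a higher mean (median difference 0.28), against 47.5% of all genes. For 3 of them the groups did not overlap, against 9.39% of all genes that were higher with no overlap, and none was called. Nup155 was at 12.06, 12.03 and 11.88 against 12.27, 12.35 and 12.18, a difference of 0.28 ± 0.15 (limma adjusted p = 0.48). Its second probe set above the filter, at 9.44, 9.75 and 9.35 against 10.13, 10.16 and 9.55, gave 0.43 with overlapping groups. Nup205, a large scaffold protein, was at 10.60, 10.35 and 10.08 against 10.81, 10.80 and 10.60, a difference of 0.39 ± 0.23 (limma adjusted p = 0.501). For Nup205 the lowest transgenic value, 10.6046, was barely above the highest control, 10.6033. Nup93, which anchors the channel proteins to the ring, was at 11.55, 11.42 and 11.18 against 11.68, 11.68 and 11.65, a difference of 0.28, and its transgenic cultures spread by 0.02 (SD, n = 3) against 0.19 in the controls. Nup188 differed by 0.11 and overlapped.

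**Figure D3:**
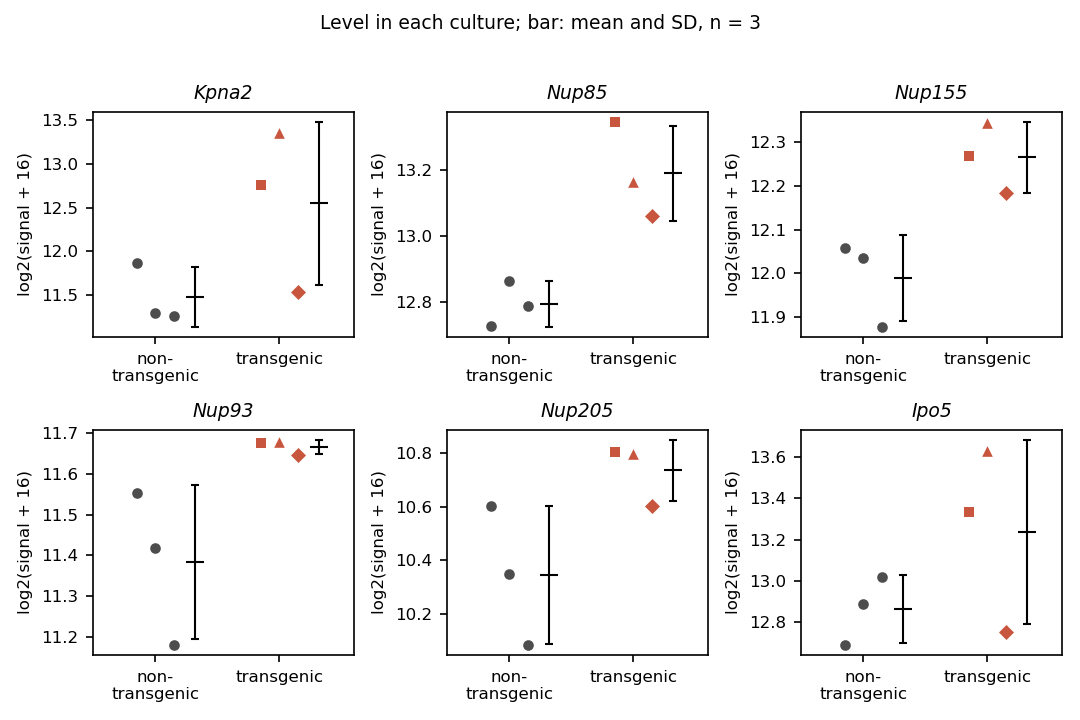
Levels of Kpna2, Ipo5 and the 4 nucleoporins with no overlap in each culture, in log2(signal + 16), with the mean and SD of each group (n = 3); circles are controls, and a square, a triangle and a diamond are transgenic cultures 1, 2 and 3. For Kpna2 and Ipo5 transgenic culture 3 lies among the controls, while for Nup85, Nup93, Nup155 and Nup205 it lies above them. The vertical axes differ between panels and do not start at 0.

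On their brightest probe sets the members of the channel and of the peripheral faces of the pore differed little. Nup62, the central channel protein, had the narrowest range of all members, 0.09, at 14.13, 14.16 and 14.18 against 14.09, 14.13 and 14.13, a difference of -0.04 ± 0.09 (limma adjusted p = 0.862). This brightest probe set is of the kind that may bind other transcripts, and the 3 other Nup62 probe sets above the filter gave 0.20 to 0.27, each with no overlap. The answer for Nup62 therefore rests on which probe set is read. Nup54, its channel partner, was at 10.32, 10.81 and 10.64 against 10.82, 10.67 and 10.59, a difference of 0.11 ± 0.22 (limma adjusted p = 0.852). On the brightest probe sets the groups overlapped in both genes.

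On the cytoplasmic face, Nup88 was at 11.97, 12.01 and 11.91 against 12.10, 11.67 and 12.09, a difference of -0.01 ± 0.18 (limma adjusted p = 0.984). Its partner Nup214, a docking site of Xpo1 cargo complexes, was at 11.74, 11.30 and 11.18 against 11.01, 11.23 and 11.97, a difference of -0.01 ± 0.29 (limma adjusted p = 0.992). In Nup214 transgenic culture 3 was the highest of all and culture 1 the lowest. In the nuclear basket, Nup50, which helps to release importin cargo, was at 11.09, 11.45 and 11.28 against 11.17, 11.52 and 11.63, a difference of 0.17 ± 0.21 (limma adjusted p = 0.75). Nup153 was at 12.15, 12.31 and 12.18 against 11.93, 12.41 and 12.11, a difference of -0.07 ± 0.18 (limma adjusted p = 0.888). On their brightest probe sets the basket genes overlapped between the groups, while 1 dimmer probe set of each did not, as given with the probe sets. The pore membrane protein Nup210 lay at 4.43 to 6.79 and Nup210l at 6.07 to 7.14, both under the level filter, and neither was tested.

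Transgenic culture 2 gave the highest of the 6 values for 19 of the 39 members, although it gave the highest for 21.3% of all genes. Of the members, 26 (66.7%) lay above all 3 controls in that culture, against 31.9% of all genes, and 4 lay below, against 42.7%. In transgenic culture 1, 17 lay above (against 33.9% of all genes) and 6 below (against 35.9%). In transgenic culture 3, 13 lay above (against 38.4%), 8 below (against 22.3%) and 18 within the control range. The median member was 0.13, 0.29 and 0.03 above the non-transgenic mean in transgenic cultures 1, 2 and 3, and -0.03, 0.06 and 0.00 in the controls. The SD between cultures was larger in the transgenic group for 26 of the 39 members. The share of all genes was not counted, so this is not read as a result about the members. The range over the 6 cultures was 0.60 for the median member and 0.84 for the median gene.

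Cell cycle genes differed across the same cultures. The list, which holds 30 tested genes such as the replication helicase subunits and the mitotic kinases, had medians of 1.43, 2.02 and 0.01 in transgenic cultures 1, 2 and 3, and of 0.52, -0.19 and -0.29 in the controls. Over 6 cultures all 30 had a higher mean, against 47.5% of all genes, and limma called 0 (0% of all genes). An unadjusted p under 0.05 was found for 13 (43.3%), against 11.5% of all genes (6.47% higher). Without transgenic culture 3 limma called 28, all higher, against 14.7% of all genes (6.88% higher). Those calls are descriptive only, because the omitted culture was chosen by its likeness to the controls. The transgenic cultures with high Kpna2 and Ipo5 were those with high cell cycle genes. Among the controls, culture 1 had the highest cell cycle median, 0.52. It had the highest Kpna2 of the controls, 11.87, but the lowest Ipo5, 12.69. The part of cell division in the values of the members was not tested.

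**Figure D4:**
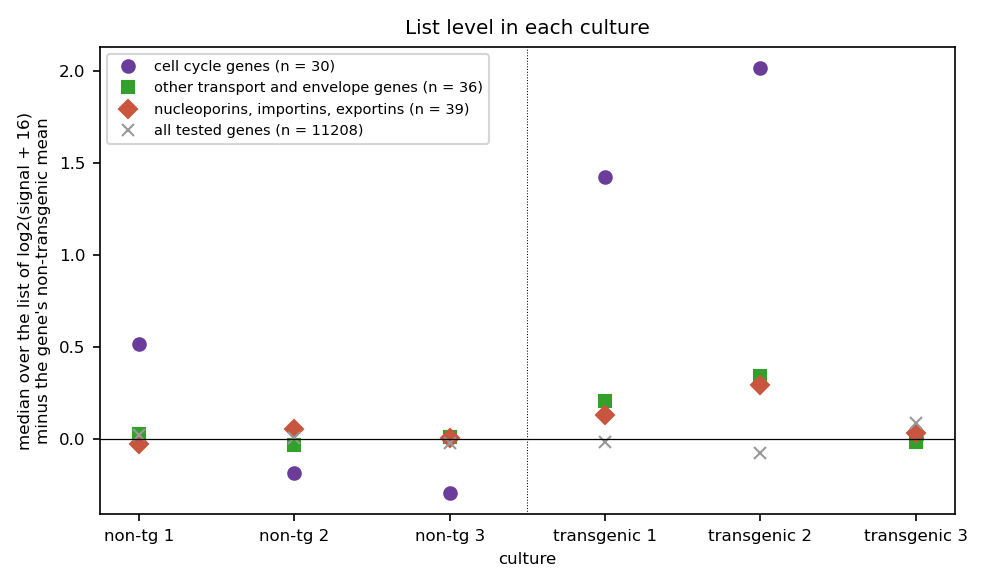
Median over each gene list of the log2(signal + 16) minus the non-transgenic mean of the gene, in each culture. Cell cycle genes lie at 1.43 and 2.02 in transgenic cultures 1 and 2, the nucleoporins and transport receptors at 0.13 and 0.29, and all lists are within 0.1 of 0 in transgenic culture 3.

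The other genes of nuclear transport and of the nuclear envelope, a fixed list of which 36 were tested, were higher in 27 and lower in 9, with a median difference of 0.15. None was called by limma (0% of all genes). An unadjusted p under 0.05 was found for 3 (8.33%), all higher, against 11.5% of all genes (6.47% higher and 5.02% lower). The groups did not overlap for 4 (11.1%), Rangap1, Lmnb2, Xpot and Emd, all higher. Over all genes that share was 16.1% (9.39% higher and 6.72% lower). Those with the small p were Rangap1, which makes Ran hydrolyse GTP in the cytoplasm, Rcc1, which loads Ran with GTP on chromatin, and Lmnb2, a lamin of the nuclear lamina. Rangap1 was at 11.13, 10.54 and 10.78 against 11.79, 12.11 and 11.26, with no overlap, a difference of 0.90 ± 0.27 (limma adjusted p = 0.428). Rcc1 was at 10.08, 9.77 and 9.30 against 10.62, 11.09 and 10.07, where culture 3 fell just inside the control range, a difference of 0.87 ± 0.34. Lmnb2 was at 9.88, 9.71 and 9.83 against 10.47, 11.18 and 10.19, with no overlap, a difference of 0.80 ± 0.30. The lowest difference of the 36 was that of Ranbp2, -0.61 ± 0.31 (limma adjusted p = 0.454). It was at 11.23, 12.40 and 12.05 against 11.30, 11.48 and 11.07, with overlap.

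Ran itself was at 14.95, 14.75 and 14.94 against 15.15, 15.03 and 14.54, a difference of 0.02 on a probe set that may bind other transcripts. Transgenic cultures 1 and 2 were the highest and culture 3 the lowest. Without transgenic culture 3 limma called 5 of the 36 (13.9%), against 14.7% of all genes (6.88% higher and 7.83% lower). These were Rangap1, Rcc1, Lmnb2 and Lmnb1, all higher, and Sun2, a protein of the inner nuclear membrane, which was lower. Cse1l, the exportin that returns importin alpha to the cytoplasm, differed by 0.11 over 6 cultures.

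The probe sets of a gene did not always give the same answer. The members had 107 probe sets that name 1 gene, of which 81 lay above the level filter, and 25 genes had at least 2 of these. In 14 of the 25 all probe sets had the same sign, in 11 they did not, and in 9 the largest and smallest difference were more than 0.5 apart. Read singly, 16 of the 81 probe sets were higher and 2 lower with no overlap, against 8.8% higher and 9.79% lower over all 19750 probe sets. limma called none of the 81 over 6 cultures (0% of all probe sets) and 8 without transgenic culture 3 (against 16.2%), 6 higher and 2 lower.

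Tnpo1, transportin 1, was one such gene. Its brightest probe set, 1433585_at, was at 13.04, 13.41 and 13.36 against 13.34, 13.33 and 12.89, a difference of -0.08. The other two above the filter were both higher in transgenic cultures 1 and 2. 1455043_at was at 12.32, 12.08 and 12.19 against 13.15, 13.46 and 12.24, a difference of 0.75 ± 0.29, and 1419864_x_at differed by 0.80 ± 0.30. Without transgenic culture 3 these were 1.11 ± 0.16 and 1.17 ± 0.16, and both were called. The probe sets of Tnpo1 therefore differ on whether its signal was higher, and their positions on the transcript are not used here.

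Nup50, Kpnb1, Xpo4 and Xpo7 supplied the other probe sets called without transgenic culture 3, apart from those of Kpna2, Ipo5 and Tnpo1. The Nup50 probe set 1450722_at was at 10.26, 9.81 and 10.04 against 10.97, 11.16 and 10.30, above every control in all 3 transgenic cultures, a difference of 0.78, against 0.17 on the brightest. The Kpnb1 probe set 1434357_a_at differed by 0.73, with no overlap. The Xpo4 probe set 1442528_at was lower, at 8.59, 9.68 and 9.58 against 7.77, 8.05 and 8.31, with no overlap and a difference of -1.24, against 0.25 on the brightest. The Xpo7 probe set 1443089_at was at 8.19, 8.72 and 8.39 against 7.16, 6.19 and 8.49, a difference of -1.15, with culture 3 inside the control range. One further probe set, 1441689_at of Nup153, lay lower in all transgenic cultures, at 8.58, 8.62 and 8.45 against 7.12, 7.94 and 7.47, a difference of -1.04. These probe sets were chosen after their values were seen.

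**Figure D5:**
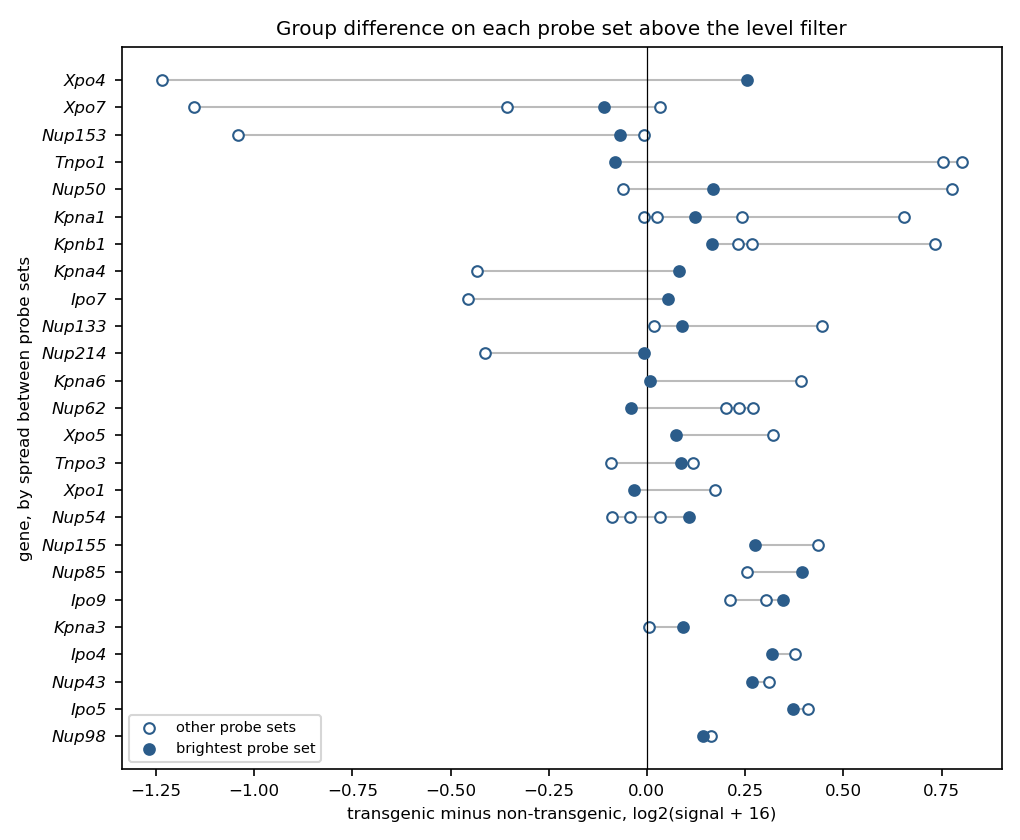
Group difference in log2(signal + 16) on each probe set above the level filter, for the 25 members with at least 2 of them, ordered by the spread between their probe sets; filled points are the brightest probe sets. Xpo4, Xpo7, Nup153 and Tnpo1 spread most, while Nup85, Nup155, Ipo5 and Nup43 agree within 0.16.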

How the data were processed

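RNA of 6 cultures was measured on 1 array each. The authors deposited 1 linear intensity per probe set and array, obtained with MAS5 according to the submitters' processing notes, which give no version; this scaling was kept. Gene names came from the array annotation, updated by gene identifier with RefSeq's mouse table (GRCm38.p6), and 2 probe sets listing a member together with another gene were not named. The deposited intensities were converted to log2(intensity + 16). The brightest probe set by its mean stood for a gene, and 11208 of 18193 genes passed a filter at the median level of the non-control probe sets. The groups were compared with limma 3.58.1 in R 4.3.3 (lmFit, then eBayes with a trend, tests in both directions), with Benjamini-Hochberg adjustment over all genes at 0.05, and the script was tested on simulated data. The number of arrays limits the precision, and p-values measure the spread between cultures of pooled mice. The members, lists and settings were chosen with earlier results of these data known. Differences with errors are given for members with an unadjusted p under 0.05 and the 2 with the smallest p in each class, and other members are named by their values. Replicate numbers come from the sample labels and were not treated as pairs. As alternatives, the pseudocount, the filter, the scaling, the variance trend, array weights and the summary of probe sets were changed, the 3' to 5' ratios or a replicate block were added, and each array was left out in turn. Reading every probe set on its own was added after seeing the data.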

Additional observations from a re-analysis of the deposited data

How the results depend on the processing

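Fewer genes tested, other pseudocounts and most other settings left 0 members called; the exceptions were array weights (12 members called, 49.1% of all genes, resting mostly on transgenic culture 1 and non-transgenic culture 2) and the fit without transgenic culture 3. Leaving out 1 culture at a time gave 0 to 2 members called, 0 to 7 with an unadjusted p under 0.05, 4 to 15 with no overlap (15 without transgenic culture 3, 11 without non-transgenic culture 1), and a median difference of 0.08 to 0.17; for the other transport genes these ranges were 0 to 5, 1 to 13, 4 to 25 and 0.06 to 0.27. Members with an unadjusted p under 0.05 numbered 1 with quantile normalization, with no variance trend, with the replicate block and when beta-actin 3' to 5' ratios entered the fit, 5 with the mean of all probe sets (8 with no overlap), 14 with array weights, 5 with the Gapdh ratio and 8 of 81 with every probe set (18 with no overlap). Scaling the arrays to 1 median raised the median of all genes from -0.02 to 0.25 and that of the members to 0.37, with 17 members at an unadjusted p under 0.05 and 17 with no overlap; for the other transport genes these were 0.42, 12 and 15. When Gapdh 3' to 5' ratios entered the fit, the median member lay at -0.0436, with 46.2% of members higher, against 0.12 over all genes; the other transport genes lay at -0.11, with 44.4% higher and 1 at an unadjusted p under 0.05. Those genes had 1 with the filter at the 75th percentile, and 22 with array weights, of which 19 were called. Deviations of same-numbered cultures correlated at 0.04, -0.28 and -0.03, and those of differently numbered cultures at -0.16 to 0.31. With 3 cultures per group, such values cannot show whether the replicate numbers stand for pairs or a shared batch. With the replicate block, as in the main fit, 0 genes were called. For most of these settings the shares of all genes at an unadjusted p under 0.05 or with no overlap were not counted. Counts of members without such a share are not read as results about the members. The cause of these shifts was not tested.

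Most of the members followed through the alternatives changed sign in at least 1 of them. Nup37, Nup85, Nup155, Nup205 and Kpna2 did not, nor did Rangap1, Rcc1 and Lmnb2. With the arrays scaled to 1 median, Nup62 was 0.23, Nup88 0.26, Nup214 0.26, Nup153 0.20 and Xpo7 0.16. With the Gapdh ratio, Nup54 was -0.11, Nup88 0.30, Nup214 0.66, Kpna1 -0.029, Ipo11 -0.057, Ipo5 -0.32 and Xpo4 -0.40. With the beta-actin ratio, Nup88 was 0.10 and Nup214 0.23. With array weights, Nup88 was 0.085 and Nup50 -0.18. With the mean of all probe sets, Nup54 was -0.069, Nup62 0.12 and Xpo4 -0.56. With each culture left out in turn, Nup54 ran from -0.029 to 0.22, Nup88 from -0.085 to 0.13, Nup214 from -0.29 to 0.19 and Nup153 from -0.20 to 0.042. Of 339 values of 19 genes under the alternatives, 26 changed sign.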
